A study of Mus musculus with 2 samples.

Results

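Natural killer (NK) cells of visceral adipose tissue (VAT) are described here from single-cell RNA and surface antibody counts of CD45+ cells. A cell was counted as an NK cell when it had 1 or more UMIs of Ncr1, none of Cd3e or Cd3d and 1 or more of Eomes or Klra8. It also had a CD4 antibody count under 10, fewer than 5 UMIs of C1qa, C1qb and C1qc together and at most 1 of Cd79a. A UMI is a molecular tag that counts each captured transcript once. These criteria found 416 cells among 25198 that had at least 500 gene UMIs, at least 200 genes and at most 25% mitochondrial UMIs. The cells were chosen by their own counts, so the levels of Ncr1, Eomes, Klra8, Cd3e and Cd3d only describe the choice. The same holds for the C1q genes, Cd79a and the CD4 antibody, which the choice capped.

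The study set antibiotic-treated (ABX) mice against mice given normal water (NW) to ask how loss of the gut microbiota changes the immune cells of fat. All mice were wildtype C57BL/6 males of 15 weeks, and the ABX group drank ampicillin, streptomycin, colistin and vancomycin. The number of mice in each library was not given in the sources used here. Each condition had 1 library, so cells of a library share their mice, tissue digestion and sequencing, and the effect of antibiotics cannot be told apart from any other difference between the libraries. No test between conditions was possible, and all intervals below are 95% intervals that cover counting error only. NK cells made up 204 of 12474 cells in NW and 212 of 12724 in ABX. They had a median of 3237 UMIs in NW (range 927 to 8610) and 3235.5 in ABX (range 684 to 14474), so their depth was close to equal. Over all cells the median was 5092 UMIs in NW and 3845.5 in ABX. The libraries shared 371 cell barcodes, 196 of them past the filters in both, and no barcode was an NK cell in both.

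NK cells are innate lymphocytes that kill stressed, infected or transformed cells with perforin and granzymes and release interferon gamma and chemokines. They read their targets through activating and inhibitory receptors, and in mice the Ly49 receptors, encoded by the Klra genes, are a large family that binds class I MHC molecules. Eomes is the transcription factor that sets conventional NK cells apart from type 1 innate lymphoid cells (ILC1), which share Ncr1 (NKp46) but are tissue resident. Klra8 encodes Ly49H, an activating Ly49 receptor that recognises a cytomegalovirus protein, and Klra4 encodes Ly49D, another activating member.

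Klra8 lay in the Ly49 cluster of chromosome 6 at chr6:130115226-130129898 (GRCm38, minus strand), and Klra4 at chr6:130043731-130067271 on the same strand. The 250 bases upstream of the start of each Ly49 gene (RefSeq, GRCm38.p6) were compared, and those of Klra8, Klra4 and Klra9 are shown because Klra4 UMIs were found in a larger share of NK cells with Klra8 than without, as described below. Klra4 was the closest of the 10 other family members to Klra8, with 212 of 249 aligned positions the same (85.1%), followed by Klra7 at 81.4% and Klra17 at 81.3%. Klra9, whose share in NK cells with and without Klra8 had overlapping intervals, shared 154 of 210 aligned positions (73.3%). Capitals mark bases that differ from Klra8 or have no counterpart in it, and in Klra8 they mark those that differ from Klra4. The windows are chr6:130129899-130130148 for Klra8, chr6:130067272-130067521 for Klra4 and chr6:130193113-130193362 for Klra9, each read on the minus strand from 5′ to 3′.
Klra8: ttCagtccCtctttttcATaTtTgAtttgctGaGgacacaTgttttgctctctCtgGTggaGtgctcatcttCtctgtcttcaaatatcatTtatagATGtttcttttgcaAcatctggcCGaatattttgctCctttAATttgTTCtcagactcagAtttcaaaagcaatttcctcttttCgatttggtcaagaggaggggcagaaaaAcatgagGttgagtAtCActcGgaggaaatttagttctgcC
Klra4: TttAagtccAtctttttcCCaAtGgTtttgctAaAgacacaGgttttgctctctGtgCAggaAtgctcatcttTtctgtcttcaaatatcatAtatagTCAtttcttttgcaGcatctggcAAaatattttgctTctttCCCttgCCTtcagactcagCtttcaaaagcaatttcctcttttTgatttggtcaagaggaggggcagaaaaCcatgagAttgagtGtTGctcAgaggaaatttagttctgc
Klra9: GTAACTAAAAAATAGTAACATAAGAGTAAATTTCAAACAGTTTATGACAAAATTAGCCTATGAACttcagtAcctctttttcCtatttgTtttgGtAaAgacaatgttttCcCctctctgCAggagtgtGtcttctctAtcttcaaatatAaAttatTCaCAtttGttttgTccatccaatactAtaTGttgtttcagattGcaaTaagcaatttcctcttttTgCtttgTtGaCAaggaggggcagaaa
The likeness of these windows is a description of sequence and was not linked to expression by any test.

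Gzma and Prf1, which the choice did not use, had higher levels in these cells than in the other kinds of cells compared. Gzma, the gene of granzyme A, had 2611 UMIs per 1000000 UMIs (CPM) in the summed NK cells of NW and 2502 in ABX. It had 284 CPM in T cells with Ncr1 in each library, 273 and 17.7 in CD8 T cells and 2.18 and 2.93 in macrophages. Gzma UMIs were found in 84.8% of NK cells in NW and 78.3% in ABX, and in 1.30% and 1.03% of macrophages, which were deeper at a median of 5986 and 4250 UMIs. After each cell was thinned to 1000 UMIs these NK shares were 71.9% and 63.4%. Prf1, the gene of the pore protein perforin, had 602 CPM in NW and 491 in ABX, against 83.3 and 46.8 in CD8 T cells and 0.742 and 1.06 in macrophages. Prf1 UMIs were in 74.0% and 64.6% of NK cells and in 0.428% and 0.425% of macrophages. Eomes and Ncr1 were used in the choice and are given as a description. Eomes had 698 and 623 CPM and UMIs in 85.3% and 83.0% of NK cells, against 0.507% and 0.324% of macrophages. Ncr1 had a median of 2 UMIs per NK cell in each library.

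T cell receptor constant-region transcripts were present. Only 33 of 204 NK cells in NW and 64 of 212 in ABX had no UMI of Cd3g, Trac, Trbc1 or Trbc2. Trbc1 had 389 CPM in NK cells of NW and 277 in ABX, and Trdc had 161 and 168. Trbc2 had 180 and 155 CPM when cells with dendritic cell or proliferation UMIs were left out as described below. Trac, the alpha chain constant gene, had only 21.6 and 14.7 CPM, against 901 and 982 in CD8 T cells. Unrearranged transcripts of the beta and delta loci are known in NK cells, and a constant-region UMI cannot show whether a locus was rearranged. The TCRβ antibody had a median of 8 and 7 counts per NK cell, 9 and 12 per T cell with Ncr1 and 57.5 and 41.5 per CD8 T cell. It had 10 or more counts on 41.2% and 33.5% of NK cells and on 49.1% and 66.3% of T cells with Ncr1. Its counts therefore overlapped between NK cells and T cells with Ncr1. Markers of neutrophils, fibroblasts and erythroid cells each summed to under 25 CPM in NK cells of each library. The endothelial list summed to 112 CPM in NW and 92.0 in ABX, and the plasma cell list to 82.1 and 73.3. The list of group 2 innate lymphoid cells, which holds Gata3, summed to 194 and 199. The B cell list summed to 1414 CPM in NW and 1622 in ABX, nearly all of it Igkc and Ighm, against 2327 and 2065 in macrophages, and Ms4a1 and Cd79b had 1 to 4 UMIs each. The dendritic cell list, which holds class II genes, summed to 3179 and 4632 CPM in NK cells, 17053 and 9953 in ILC1-like cells and 29085 and 32994 in macrophages.

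The edges of the choice were thin in UMIs. Exactly 1 Ncr1 UMI was found in 65 NK cells of NW and 74 of ABX, and exactly 1 UMI of Eomes and Klra8 together in 33 and 40. Just outside, 92 and 119 cells met every criterion but had no Ncr1 UMI, and 8 and 9 cells had 1 UMI of Cd3e or Cd3d. On the macrophage side, 34 and 16 NK cells had 3 or 4 UMIs of the C1q genes, and 23 and 34 otherwise matching cells had 5 or more. The CD4 antibody was at 5 to 9 counts in 7 and 13 NK cells, and 1 and 8 otherwise matching cells had 10 or more.

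The share of NK cells among all cells was similar in the libraries under the criteria above. The share was 1.64% (1.42% to 1.87%) in NW and 1.67% (1.45% to 1.90%) in ABX, a log10 ratio of 0.0081 (-0.0747 to 0.0909). Macrophages were 50.6% of cells in NW and 38.8% in ABX, and among the cells that were not macrophages NK cells were 3.31% (2.88% to 3.78%) in NW and 2.72% (2.37% to 3.11%) in ABX. The nearest other cells were 106 cells in NW and 177 in ABX that met all criteria but lacked Eomes and Klra8 UMIs, here called ILC1-like because Il7r, Cxcr6, Itga1, Inpp4b and Tmem176b of the ILC1 list were high in them (values below). They were 0.850% (0.696% to 1.03%) of cells in NW and 1.39% (1.19% to 1.61%) in ABX. NK cells were thus 65.8% (60.2% to 71.1%) of the Ncr1+ Cd3- cells in NW and 54.5% (49.4% to 59.5%) in ABX, a log10 ratio of -0.0819 (-0.135 to -0.0293). At 1000 UMIs per cell these shares were 51.3% and 38.8%, with 249 and 376 cells under that depth left out of the libraries. Of the 204 and 212 NK cells, 92.8 and 89.4 were still expected to meet the criteria at that depth, and an NK cell whose Eomes and Klra8 UMIs are missed is counted as ILC1-like. The direction of that difference turned when every cell with a Cd3g, Trac, Trbc1 or Trbc2 UMI was also removed, which left 33 of 64 Ncr1+ cells as NK cells in NW (51.6%) and 64 of 104 in ABX (61.5%). Those cells were 0.265% of all cells in NW and 0.503% in ABX, and the log10 of their ratio was 0.279.

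**Figure D1:**
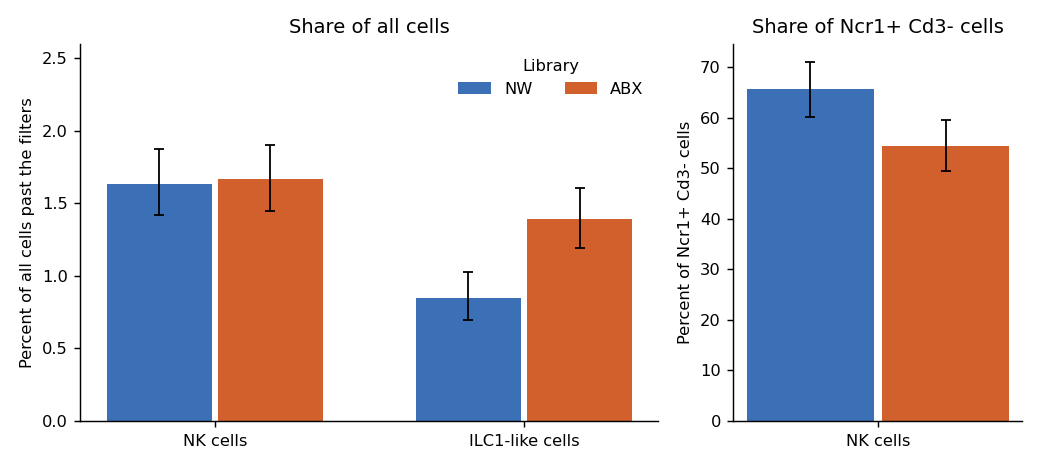
Bars give NK cells and ILC1-like cells as a percent of all cells past the filters (left) and NK cells as a percent of Ncr1+ Cd3- cells (right) in the NW (blue) and ABX (orange) library, with exact 95% binomial intervals. NK cells stand at 1.64% and 1.67% of all cells with overlapping intervals, and at 65.8% and 54.5% of Ncr1+ Cd3- cells.

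The Ly49 family was abundant in NK cells and varied from cell to cell. Its 11 genes summed to 4507 CPM in NK cells of NW and 4073 in ABX, against 746 and 948 in ILC1-like cells and 20.01 and 25.1 in macrophages. NK cells had UMIs of a median of 3 family members in each library, and 80.4% of them in NW and 79.2% in ABX had 2 or more. The same was true of 14.2% and 14.7% of ILC1-like cells and of 0.729% and 0.708% of macrophages. Klra8 itself admitted cells, so the other 10 genes are given apart. UMIs of at least 1 of them were found in 92.2% and 93.4% of NK cells, 50.9% and 50.3% of ILC1-like cells and 7.33% and 6.55% of macrophages.

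Among the activating members, Klra8 had 1818 CPM in NW and 1350 in ABX and UMIs in 64.7% and 60.4% of NK cells. Per cell, Klra8 had a median of 3.5 UMIs in NW (quartiles 0 and 10) and 2 in ABX (quartiles 0 and 7.25). It held 40.3% of all Ly49 UMIs of NK cells in NW and 33.2% in ABX. Klra4 stood at 910 and 907 CPM, with UMIs in 46.1% and 46.7% of NK cells, a log2 ratio of ABX over NW of -0.01 (-0.16 to 0.15). Among the inhibitory members, Klra9 (Ly49I) had 871 and 1038 CPM, Klra7 (Ly49G) had 536 and 373, Klra3 (Ly49C) had 243 and 263, and Klra1 (Ly49A) had 79.2 and 69.3. Klra5, Klra6 and Klra10 were at 5.76 to 30.7 CPM, and Klra2 and Klra17 had 1 or 2 UMIs in each library. The 3′ end of these transcripts was compared because the assay counts 3′ ends. Over the last 500 bases of the annotated transcripts, no stretch of 100 bases was shared between family members except between Klra3 and Klra10 (5.49% of such stretches), so reads of Klra3 and Klra10 may in part be split.

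Klra4 UMIs were found in a larger share of the NK cells that had a Klra8 UMI. In NW, 72 of 132 NK cells with a Klra8 UMI also had a Klra4 UMI (54.5%, 45.7% to 63.2%), against 22 of 72 without Klra8 (30.6%, 20.2% to 42.5%). In ABX the shares were 73 of 128 (57.0%, 48.0% to 65.7%) and 26 of 84 (31.0%, 21.3% to 42.0%). At 1000 UMIs per cell they were 45.7% and 22.5% in NW and 46.5% and 23.2% in ABX. For Klra9 the shares with and without Klra8 were 63.6% and 55.6% in NW and 67.2% and 60.7% in ABX, with overlapping intervals. Klra7 was at 59.1% and 43.1% in NW and 50.8% and 31.0% in ABX, and after thinning at 34.4% and 30.2% in NW and 29.5% and 18.7% in ABX. Cells without Klra8 entered only through Eomes, which is a difference made by the choice and lies beside all of these values.

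**Figure D2:**
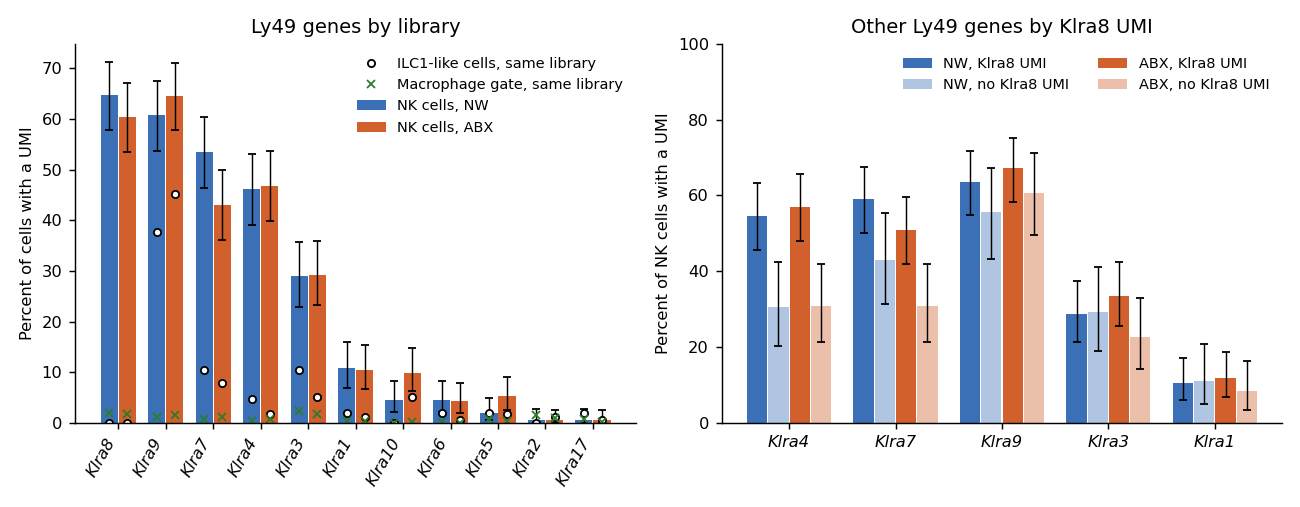
Left, percent of cells with a UMI of each Ly49 gene in NK cells of NW (blue bars) and ABX (orange bars) with exact 95% intervals, beside ILC1-like cells (open circles) and macrophages (crosses) of the same library. Right, percent of NK cells with a UMI of 5 other Ly49 genes, split by whether the cell had a Klra8 UMI (dark) or not (pale), where Klra4 is at 54.5% and 57.0% with Klra8 and at 30.6% and 31.0% without.

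Eomes and Klra8 divided the NK cells into 3 sets. Both genes had UMIs in 102 cells of NW (50%) and 92 of ABX (43.4%), Eomes alone in 72 (35.3%) and 84 (39.6%), and Klra8 alone in 30 (14.7%) and 36 (17.0%). Gzma was at 2485, 2691 and 2656 CPM in the cells of NW with Eomes only, both and Klra8 only. In ABX it was at 1579, 3212 and 3188 CPM, so that cells with Klra8 had more Gzma in ABX (log2 ratio 1.02, 0.87 to 1.17) and a similar level in NW (0.11, -0.03 to 0.25). Ly6c2, a surface protein gene of mature lymphocytes and monocytes, was lower with Klra8 in each library (log2 ratio -0.77 in NW and -0.65 in ABX). Tmem176b was also lower with Klra8 (-1.18 and -0.97). In ABX, however, it was at 207, 76.5 and 188 CPM in cells with Eomes only, both and Klra8 only. Itga1 and Inpp4b of the ILC1 list were highest in cells with Klra8 only. They were at 75.3 and 108 CPM there in NW and 107 and 161 in ABX, on 7 to 18 UMIs. Il7r was highest in that set only in NW, and Cxcr6 only in ABX. For Ncr1 the log2 ratios of cells with over without Klra8 were -0.09 and -0.0003, and both intervals held 0.

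Cd27 and Itgam (CD11b) mark the maturation of mouse NK cells, from Cd27 alone through both to Itgam alone. Cells with Itgam alone were 77 in NW (37.7%) and 71 in ABX (33.5%), and cells with Cd27 alone were 45 (22.1%) and 37 (17.5%). Gzma had 3433 and 4184 CPM in cells with Itgam alone, 2748 and 2222 in cells with both and 2033 and 857 in cells with Cd27 alone. The order of the 3 classes was the same in each library. Cells with neither UMI, 47 in NW (23.04%) and 78 in ABX (36.8%), had lower median depth (2937 and 2976 UMIs), and a missed UMI also puts a cell in this class.

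NK cells differed from ILC1-like cells by Ly49 receptors and some cytotoxic effector and maturation genes on the high side and by residency genes on the low side. Of 4492 genes with at least 100 UMIs over the 4 sums of cells, 37 were at least 2-fold higher in NK cells in each library (0.824%) and 62 at least 2-fold lower (1.38%). The median log2 ratio over all these genes was 0.07 in NW and 0.04 in ABX. Eomes and Klra8 are among the 37, but the choice itself made them absent from ILC1-like cells. Since both groups were chosen on their counts these ratios are a description with no test.

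Apart from Klra8, 5 Ly49 genes had enough UMIs. Of these, 4 were 2-fold higher in NK cells, beside 0.824% of all genes, namely Klra4, Klra7, Klra3 and Klra1. Klra4 was at 910 and 907 CPM in NK cells against 42.8 and 19.2 in ILC1-like cells (log2 ratio 4.41 in NW and 5.56 in ABX). Klra9 was the exception, with 482 and 796 CPM in ILC1-like cells and ratios of 0.85 and 0.38. Of 17 cytotoxic granule genes, 3 were higher in NK cells past the limit, beside 0.824% of all genes. Gzma had log2 ratios of 1.86 and 2.43 and Prf1 of 1.65 and 1.66, while Fasl, the gene of the death ligand FasL, had 1.08 and 1.06 (0.48 and 0.81 without the cells described below). Tnfsf10, the gene of the death ligand TRAIL and a mark of ILC1, was lower in NK cells (-1.90 and -2.20). Gzmb differed by less than the 2-fold limit (0.49 and 0.44), and Nkg7, a granule membrane protein gene, by 0.98 and 0.76.

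Some genes of maturation and circulation were also high in NK cells. The 14 genes of the mature NK list together summed to 3733 and 3831 CPM in NK cells and 3660 and 3858 in ILC1-like cells. Ly6c2 of that list was lower in NK cells, with log2 ratios of -1.14 and -0.61 without the cells described below. Of 13 genes of the mature NK list, 4 passed the limit on the high side, beside 0.824% of all genes. These were Itgam (log2 ratio 1.47 and 1.70), S1pr5, the sphingosine-1-phosphate receptor used for tissue exit (1.91 and 1.81), Itga2 and Cma1. Itga2, the gene of CD49b, had 230 and 220 CPM against 96.9 and 103. Without the cells described below its log2 ratios were 0.72 and 0.92 and so within the limit. Cma1 had ratios of 3.47 (1.84 to 5.79) and 3.79 (2.16 to 6.12). It had 52 and 50 UMIs in NK cells and only 3 in ILC1-like cells of each library. Cma1 encodes a mast cell protease. Of the 5 genes of the mast cell list, Mcpt4, Tpsb2 and Fcer1a had no UMI in NK cells, while Cpa3 had some. The list summed to 79.2 and 78.7 CPM in NK cells, of which Cma1 made up 74.9 and 66.7. Tcf7, a transcription factor of early NK cells, had ratios of 1.62 and 1.81, and Sh2d1a, the gene of the signalling adaptor SAP, 3.26 and 3.63. The other highest-ranked genes were Myb, a transcription factor, Serpinb9b, a granzyme inhibitor of the serpin family, and Phactr3. The receptor genes Klri2 (796 and 617 CPM) and Klrc2 (1.53 and 1.00), the signalling chain Cd247 (1.78 and 1.59) and Trdc (2.70 and 2.71) passed the limit too.

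Of 12 genes of the ILC1 and tissue residency list, none was 2-fold higher and 7 were 2-fold lower in NK cells. Over all genes 0.824% were higher and 1.38% lower. Cxcr6, a chemokine receptor of resident lymphocytes, had 25.9 and 24.0 CPM in NK cells against 180 and 253 in ILC1-like cells (log2 ratio -2.80 and -3.40). Il7r, the receptor chain for interleukin 7, had 147 and 171 CPM against 791 and 652 (-2.43 and -1.93). Inpp4b, a lipid phosphatase gene, had ratios of -3.09 and -2.65, and Itga1, the gene of CD49a, -1.98 and -1.36. Tmem176a, Tmem176b and Tnfsf10 made up the 7. Gzmc, a granzyme gene of ILC1, had 2 and 1 UMIs in NK cells against 78.9 and 83.3 CPM in ILC1-like cells. Tbx21, the T-bet gene that both cell types need, was at 206 and 183 CPM in NK cells and 180 and 184 in ILC1-like cells.

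Dendritic cell genes were also on the low side. Xcr1, Cd24a, Plbd1 and Rnase6 were among the 10 lowest named genes, and Xcr1 is a marker of type 1 dendritic cells. The class II genes H2-Aa, H2-Ab1, H2-Eb1 and Cd74 reached 100 or more UMIs in 15 ILC1-like cells of NW and 11 of ABX, which held 92.1% and 78.1% of all class II UMIs of that group. Such cells numbered 2 and 6 among NK cells, with 30.03% and 62.2% of class II UMIs. ILC1-like cells of ABX also had 4994 CPM of Igkc and 612 of Fabp4, against 786 and 11.3 in NW, and the part of other cells in these values was not tested. Without cells that had a UMI of Xcr1, Flt3, Clec9a, Cd209a or Zbtb46 or 10 or more proliferation UMIs, 28 genes were higher and 28 lower, and 25 and 20 of these were among the 37 and 62. Cxcr6 (-3.24 and -3.45), Il7r (-2.93 and -1.98), Inpp4b (-3.54 and -2.82), Arg1 (-2.10 and -3.91) and Mmp9 (-3.10 and -2.44) were also past the limit there, as were Gzma (1.27 and 2.52), Prf1 (1.16 and 1.52) and Klra4 (4.53 and 5.22). Xcr1 had no UMI left, Cd24a was at 9.72 and 7.81 CPM in NK cells against 17.4 and 21.8, and Plbd1 at 14.6 and 7.81 against 10.4 and 7.94.

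**Figure D3:**
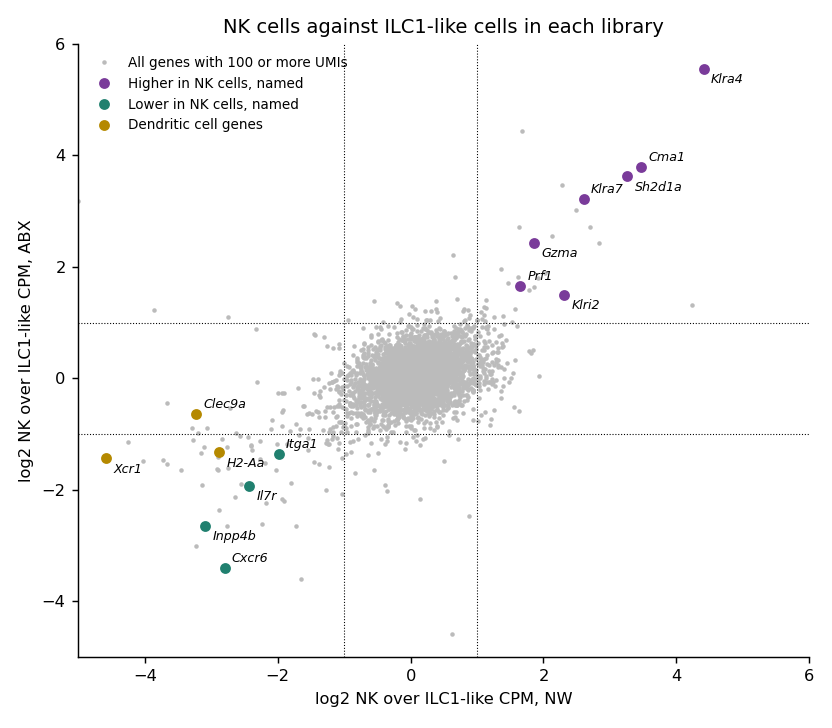
Each point is a gene with at least 100 UMIs, at its log2 ratio of CPM in NK cells over ILC1-like cells in NW (x axis) and in ABX (y axis), with dotted lines at 2-fold, and Eomes and Klra8 left out because the choice of cells sets them. Klra4 lies at 4.41 and 5.56, Gzma on the same high side, Cxcr6 and Inpp4b on the low side, and the dendritic cell genes Xcr1, Clec9a and H2-Aa on the low side too.

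The surface antibodies differed between the same groups. CD44, the hyaluronan receptor, was lower on NK cells, with medians of 35 and 30 against 86 and 70 on ILC1-like cells. Cd44 mRNA did not show this gap, with 415 and 340 CPM in NK cells and 476 and 346 in ILC1-like cells. The NK-1.1 antibody, against the product of Klrb1c, had medians of 26 and 19 on NK cells but 32 and 34 on macrophages, whose Klrb1c was at 2.25 and 4.50 CPM against 1306 and 1169 in NK cells. The count of this antibody therefore did not tell NK cells from macrophages. Antibody totals per cell were also lower on NK cells (medians 115 and 109) than on ILC1-like cells (167.5 and 150). As a share of the antibody counts of the cell, CD44 had medians of 29.7% and 36.2% on NK cells and 53.2% and 52.2% on ILC1-like cells.

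**Figure D4:**
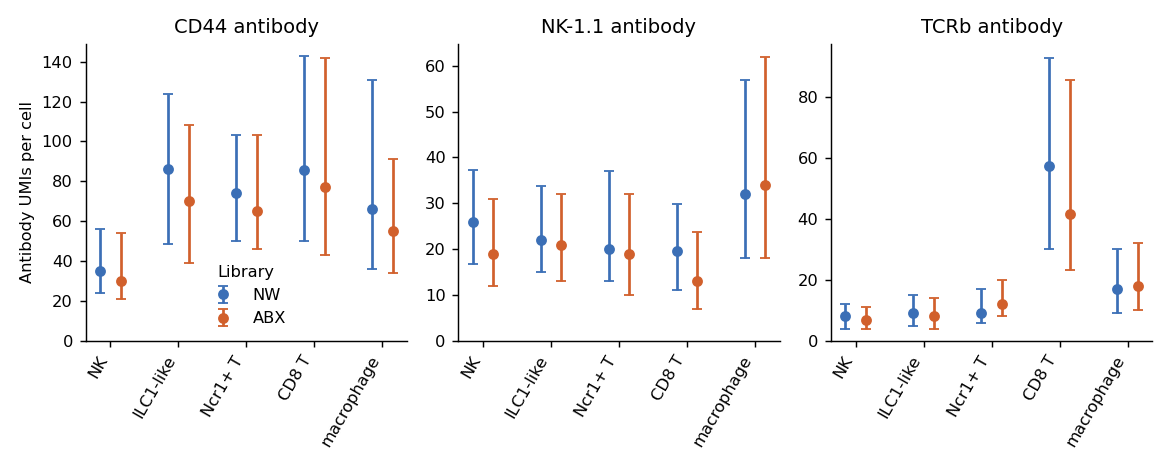
Points are medians and bars quartiles of antibody UMIs per cell for CD44, NK-1.1 and TCRβ in 5 kinds of cells of NW (blue) and ABX (orange). CD44 is lowest on NK cells, NK-1.1 is no higher on NK cells than on macrophages, and TCRβ has medians of 57.5 and 41.5 on CD8 T cells and of 7 to 18 on the other kinds.

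Gene levels of NK cells were close between ABX and NW. Of 2862 genes with at least 100 UMIs over the NK cells of both libraries, 47 were at least 1.5-fold higher in ABX (1.64%) and 56 at least 1.5-fold lower (1.96%), and the median log2 ratio was -0.03. The limit is one of size and not of a test. C1qb, whose UMIs the choice capped, is among the 56 lower genes. Most of the genes past it were low, since among the 866 genes with at least 300 UMIs only 4 were higher (Socs2, H2-Aa, Cd74 and Wdr89) and 5 lower (Retnla, Ccl3, Ccl4, Lyz2 and Pafah1b1).

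Cytotoxic granule genes and the listed activating and inhibitory receptors stayed within the limit, as did most genes of all kinds. Of 14 cytotoxic granule genes none was past it, beside 1.64% of all genes higher and 1.96% lower past it. Their median log2 ratio was -0.10. Gzma was at 2611 and 2502 CPM (-0.06, -0.16 to 0.03), Gzmb at 410 and 441 (0.11, -0.13 to 0.34), Prf1 at 602 and 491 (-0.29, -0.50 to -0.09) and Nkg7 at 1857 and 1597 (-0.22, -0.33 to -0.10). Of 17 activating receptors and adaptors and 11 inhibitory receptors none was past it either. Klra7 (-0.52, -0.75 to -0.29) was lower in the ABX library with an interval below 0, and Klra9 was higher (0.25, 0.10 to 0.41). Klra8, which admitted cells and is given as a description, was at -0.43 (-0.55 to -0.31). With each cell weighted equally it was at -0.27, outside that interval. Klrk1, which encodes the stress receptor NKG2D, was at 1224 and 1164 CPM, and Tyrobp, the gene of the adaptor DAP12 that Ly49D and Ly49H signal through, at 2050 and 1801. All 11 class I MHC genes stayed within the limit, with H2-K1 at 4595 and 4855 CPM.

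Ccl3, Ccl4, Nr4a1 and Dusp1 were lower in the ABX library past the limit, while most genes of their lists were not past it. Of 5 cytokine and chemokine genes with enough UMIs, 2 were past the limit and both were lower, beside 1.96% of all genes, and the median of the 5 was -0.57. Ccl4, an inflammatory chemokine gene, was at 442 CPM in NW and 188 in ABX (log2 ratio -1.23, -1.53 to -0.94), and Ccl3 at 383 and 200 (-0.94, -1.24 to -0.64). Ccl4 UMIs were in 30.4% of NK cells of NW and 18.9% of ABX, and 117 of the 307 UMIs of NW lay in 1 cell. Without the cell with most Ccl4 in each library, Ccl4 was at 275 and 128 CPM and the ratio of Ccl3 was -0.87. Xcl1, which attracts dendritic cells with the receptor Xcr1, was at 466 and 313 CPM (-0.57, -0.82 to -0.33), and at -0.32 without those cells. Ifng had 47 UMIs in NW and 28 in ABX (67.7 and 37.3 CPM, -0.86, -1.59 to -0.15), too few for the limit to be applied. Ccl5, the most abundant chemokine, was at 7886 and 7389 CPM (-0.09, -0.15 to -0.04). Of 19 immediate early and heat shock genes 2 were lower past the limit, beside 1.96% of all genes, and none higher, with a median of -0.19. Nr4a1, an early gene of receptor signalling, was at 167 and 64.0 CPM (-1.38, -1.90 to -0.89) and Dusp1, a phosphatase of MAP kinases, at 199 and 115 (-0.79, -1.20 to -0.39). Fos (-0.37) and Jun (-0.19) differed less, and Hspa1a and Hspa1b stood at -0.14 and -0.11. Tissue digestion is known to induce these genes, and its part in the difference was not tested.

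In the ILC1-like cells of the same libraries, Ccl3 (-0.90), Ccl4 (-0.70), Nr4a1 (-1.06) and Dusp1 (-0.92) were lower in ABX as well. In macrophages Ccl3 was at 349 and 554 CPM and Ccl4 at 113 and 167.

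Few migration and maturation genes were past the limit. Of 17 migration and adhesion genes 1 was lower past it, beside 1.96% of all genes, namely S1pr1, the receptor for exit from tissue into lymph, at 95.01 and 50.7 CPM (-0.91, -1.52 to -0.31). Itgam was at 344 and 240 CPM (-0.52, -0.81 to -0.23), and Cxcr4 at 518 and 360 (-0.53, -0.76 to -0.29). Zeb2, a transcription factor of terminal NK maturation, was the only 1 of 12 mature NK genes past the limit (96.4 and 56.0 CPM, -0.78). Zeb2 is also high in macrophages, at 486 and 497 CPM. Ly6c2 was higher in ABX, at 1018 and 1510 CPM (0.57, 0.43 to 0.71), just under the limit, and was in 38.7% and 52.8% of NK cells. Of 10 early NK genes none was past the limit, with Tcf7 at 472 and 400 CPM and Cd27 at 145.4 and 133. Of 4 ILC1 and residency genes with enough UMIs 1 was higher past it, beside 1.64% of all genes. This was Tmem176b, at 89.2 and 149 CPM (0.74, 0.28 to 1.21).

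Among the genes higher in ABX, Socs2, a feedback inhibitor of cytokine receptors, had the most UMIs of the top ranks. It was at 255 and 520 CPM (1.03, 0.77 to 1.29), its UMIs were in 30.9% and 46.2% of NK cells, and the most in a cell was 10 and 17. It was at 18.4 and 19.6 CPM in macrophages, and at 737 and 974 in ILC1-like cells (0.40). Slc2a3, a glucose transporter gene, was the only 1 of 11 glycolysis genes past the limit, beside 1.64% of all genes higher past it. Slc2a3 was at 57.6 and 104 CPM (0.85, 0.28 to 1.44), and Ldha was at 216 and 209. The other high ranks were Tuba1b, Lamtor1, Dennd2d, Ptpn11, Usp16, Smarca4, Ranbp10 and Slfn8, each with 29 to 119 UMIs in a library and log2 ratios from 0.78 to 1.41. Low ranks not named elsewhere were Taf3, Ripk1, Arap1 and Pltp, with 35 to 84 UMIs and ratios from -1.07 to -0.86. In macrophages Pltp was at 2186 and 1782 CPM, and Taf3, Ripk1 and Arap1 were at 44.4 to 153. Of 17 transcription factors only Zeb2 passed the limit, on the low side, beside 1.96% of all genes. Id2 was at 1514 and 1581 CPM and Tbx21 at 206 and 183. None of 11 cytokine receptors passed it, with Il2rb, the receptor chain for interleukins 2 and 15, at 2342 and 2134. The receptors for short-chain fatty acids Ffar2 and Ffar3 had 2 and 1 UMIs and none, and Pparg had 3 and 5.

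**Figure D5:**
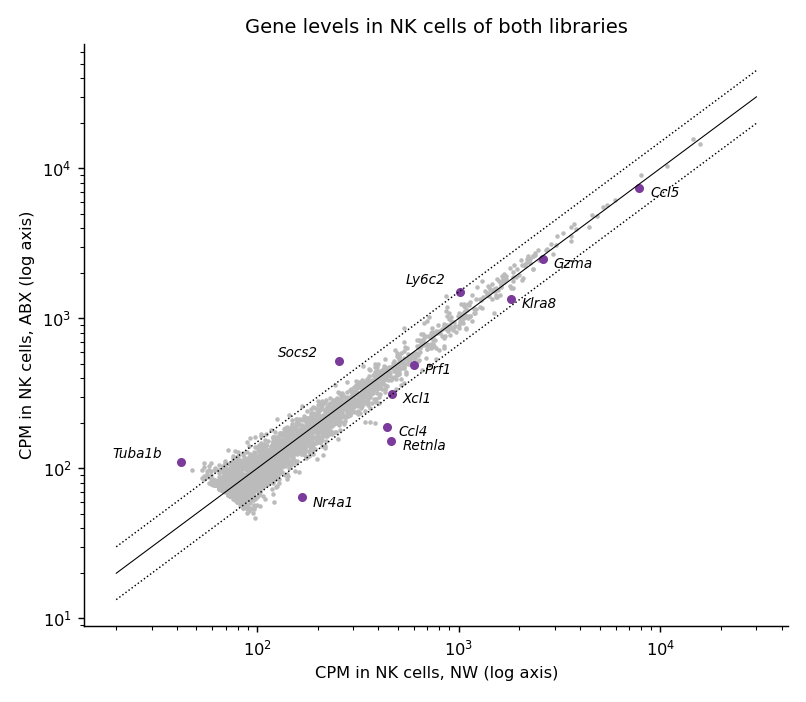
Each point is a gene with at least 100 UMIs over all NK cells, at its CPM in NW (x axis) and ABX (y axis), both on log axes, with a line of equality and dotted lines at 1.5-fold. Gzma, Prf1 and Ccl5 lie near equality, Socs2 and Tuba1b above the dotted lines, and Ccl4, Nr4a1 and Retnla below them.

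Transcripts of other cell types also differed between the NK cells of the libraries. Retnla, an alternative activation gene of macrophages, was at 464 and 153 CPM in NK cells (log2 ratio -1.60, -1.92 to -1.28) and at 9260 and 6195 in macrophages, and its UMIs were in 68.6% and 40.1% of NK cells. All 5 macrophage genes with enough UMIs had ratios below 0, with a median of -0.47. Of these, 2 were past the limit, Lyz2 and Csf1r, beside 1.96% of all genes lower past it. The 11 genes of that list summed to 1539 CPM in NK cells of NW and 1060 in ABX, against 31949 and 33541 in macrophages, and none was at 0. The defining gene Adgre1 had 7 and 4 UMIs in NK cells. Macrophages were 50.6% and 38.8% of cells. The part of these transcripts in the low ratios of other genes that macrophages share, such as Ccl3, Dusp1, Nr4a1 and Zeb2, was not tested. For the class II genes, the log2 ratios of H2-Aa and Cd74 were both 0.70, and were -0.27 and -0.11 without the 2 and 6 NK cells that had 100 or more class II UMIs.

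Dividing NK cells were rare. The proliferation list without Hmgb2 (11 genes) had 41 UMIs in NK cells of NW and 274 in ABX, and 2 cells of ABX held 155 and 62 of the latter. Cells with 10 or more such UMIs numbered 0 of 204 in NW, with an exact upper bound of 1.79%, and 2 of 212 in ABX (0.943%, 0.114% to 3.37%). Mki67 thus had 2 UMIs in NW and 87 in ABX, and the log2 ratio of Tuba1b was 1.41 with and 0.65 without these cells.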

How the data were processed

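CD45+ cells of VAT were enriched with magnetic beads and captured on the BD Rhapsody platform with oligonucleotide-tagged antibodies. The authors made the deposited counts, UMIs per cell and feature after error correction, with BD Rhapsody WTA Analysis Pipeline 1.8 per the file headers. The processing notes in the labels also name R 3.6.0, Seurat 3.0.1 and mm10. The files held 17662 barcodes in NW and 17785 in ABX, with 79855126 and 64801767 gene UMIs and 10 antibodies. RNA free in solution is counted with the cell whose barcode it carries, so low counts of another cell type can be background.

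Cells were filtered and chosen as given above. Macrophages were cells with 5 or more C1q UMIs and no Cd3e, Cd3d or Ncr1 UMI, CD8 T cells had Cd3 and Cd8b1 UMIs without Ncr1, and T cells with Ncr1 had Cd3 UMIs. UMIs were summed over the cells of a library and kind and scaled to CPM. Log2 ratios carry exact 95% intervals for a ratio of Poisson counts, and shares carry exact Clopper-Pearson intervals. Shares of cells with a UMI were also computed at 1000 UMIs per cell, as the mean over random draws of UMIs calculated exactly. No count model was used, because each condition had 1 library. Genes were counted past a limit of 1.5-fold between libraries, or 2-fold in both libraries against ILC1-like cells, with at least 100 UMIs. The genes named are the markers, examples of gene lists, and the 10 highest and 10 lowest ratios of each comparison without predicted, ribosomal, mitochondrial, immunoglobulin and Y-linked genes. Wdr89, Pafah1b1, Igkc and Fabp4 were named after their values were seen. Some genes of the lists and an antibody are not reported here. The cells, lists and comparisons were chosen with earlier results of these data known.

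Doublets were kept. Scrublet marked 344 cells of NW (2.76%) and 1 of ABX, so it did not work in ABX, and the NW threshold applied there marked 324 (2.55%). Of NK cells 2 in NW and 3 in ABX were above that threshold. Gene positions are from GENCODE M21. Python 3.11.15, numpy 2.4.6, scipy 1.17.1, pandas 2.3.3, scanpy 1.11.5, Biopython 1.88 and matplotlib 3.10.9 were used, and the ratio code was tested on simulated data.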

Additional observations from a re-analysis of the deposited data

Results flagged for a closer look

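For 10 of the listed or named genes the ratio of ABX over NW was past 1.5-fold in opposite directions in NK cells and in ILC1-like cells, with both intervals clear of 0 and at least 30 UMIs in each kind of cell. Each condition had 1 library, and the difference was not tested. Other genes had opposite signs without meeting these limits. Among proliferation genes the log2 ratios in NK cells and ILC1-like cells were 5.33 and -2.85 for Mki67, 3.47 and -1.61 for Top2a, 1.47 and -2.49 for Stmn1 and 1.41 and -0.84 for Tuba1b. The proliferation UMIs lay in few cells, with 217 of 274 in 2 NK cells of ABX and 137 of 169 in 2 ILC1-like cells of NW. Among dendritic cell and class II genes the ratios were 1.47 and -1.12 for Clec9a, 0.70 and -0.85 for H2-Aa, 0.70 and -0.84 for Cd74 and 0.83 and -1.31 for Plbd1. Cells with 100 or more class II UMIs held 30.03% and 62.2% of class II UMIs in NK cells of NW and ABX and 92.1% and 78.1% in ILC1-like cells. The ratios were -0.82 and 1.18 for Csf1r, a macrophage receptor gene, and -1.07 and 0.96 for Taf3.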

How the results depend on the processing

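Removing every cell with a Cd3g, Trac, Trbc1 or Trbc2 UMI left 33 NK cells in NW and 64 in ABX and made the log10 ratio of the NK share 0.279, and that among Ncr1+ Cd3- cells 0.0768. It gave 20 genes higher and 34 lower in ABX and 39 lower in NK than in ILC1-like cells. With 491 genes tested in place of 2862, 3 of the 47 higher and 0 of the 56 lower genes were among these. Lamtor1 and Ptpn11 were both at 0.14 and Socs2 at 2.18, and the log2 ratios of ABX over NW reversed for Taf3 (0.30), Arg1 (0.51), Mmp9 (-0.49) and Rnase6 (-0.079). A minimum of 30 UMIs gave 437 higher and 409 lower genes in ABX, and 97 higher and 214 lower in NK cells. A minimum of 300 gave 4, 5, 17 and 21. Alternatives chosen after seeing the data were the removal of dendritic or proliferating cells, which left 28 genes lower in NK cells, and of NK cells with 100 or more class II UMIs, which reversed Xcr1 (-0.053), Cd24a (-0.54), Plbd1 (-0.73), Rnase6 (-0.79), H2-Aa (-0.27) and Cd74 (-0.11). Beyond the fewer cells or the UMI minimum of each setting, the cause was not tested. Of the other values for shares and counts, 54 stayed within the error or 1.5 times of the first. Scaling to the median ratio gave 53 genes higher and 49 lower in ABX. No paired analysis was possible because each condition had 1 library, and for the same reason no replicate could be left out. Genes with few UMIs have wide counting intervals.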
